A study of Mus musculus with 6 samples.

Results

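The NR4A, EGR and KLF factors described here are 9 genes for stimulus-responsive transcription factors that have been linked to quiescence, the resting state of a cell outside the cell cycle. They were picked by symbol from the expression tables: Nr4a1, Nr4a2, Nr4a3, Egr1, Egr2, Egr3, Klf2, Klf4 and Klf6. These 9 are among 30733 gene symbols, and each had 1 row in every table. The data are RNA sequencing of mouse bone marrow cells labelled as hematopoietic stem cells (HSCs, from which every blood lineage is renewed). All mice were WT and all had received total body irradiation at a dose of 5 Gy. Sorting by MHC class II (MHCII), which displays peptides to CD4 T cells, gave 3 MHCII-hi and 3 MHCII-lo libraries. Both groups were irradiated, so the design holds no contrast for radiation itself. The labels give neither the gates, the age of the mice nor the time after irradiation, and no label ties a replicate to a mouse of its own. P-values therefore measure only the spread between libraries, which may be technical.

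NR4A and EGR genes are immediate early genes, whose short-lived messages rise within minutes when kinase or calcium signals reach factors already bound to DNA. Klf4 and Klf6 also respond to stimuli, while Klf2 is high in resting lymphocytes and falls when they are activated. NR4A proteins are nuclear receptors that need no ligand, so their amount sets their activity. EGR proteins are zinc finger activators held in check by the corepressors Nab1 and Nab2. KLF proteins are zinc finger factors that bind GC-rich DNA. In mouse marrow, loss of Nr4a1 with Nr4a3 and loss of Egr1 are each known to push HSCs into division, and Klf2 is known to hold naive T cells at rest.

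The libraries stood far apart as a whole, and markers of several cell types were present in both groups. Values are FPKM, fragments per kilobase of a transcript relative to library size. They summed to 332289 to 383600 per library, and the estimated depth was 2.02e+07 to 3.28e+07 fragments. Of 12110 genes that reached a mean of 1 FPKM, 25.5% rose and 33.1% fell from MHCII-lo to MHCII-hi at an adjusted p of 0.05 (limma, Benjamini-Hochberg over all tested genes), and the groups did not overlap for 65.8%. The median log2 change of all tested genes was -0.04. Immunoglobulin genes took 23.4% to 23.7% of summed FPKM in MHCII-hi and 0.493% to 0.502% in MHCII-lo. Scaling each library to its sum without them raised the median change by 0.15, moved the share of calls that were higher from 43.5% to 69.7%, and left 40.5% of genes higher and 17.6% lower, 58.1% in all. Of 12 HSC markers, Mecom, Fgd5, Procr, Slamf1, Hoxb5 and Ctnnal1 stayed under 1 FPKM in every library. Kit was present at 15.0 ± 0.101 FPKM in MHCII-hi against 12.6 ± 0.0751 FPKM in MHCII-lo (SD, n = 3). Ly6a stood at 35.5 ± 2.74 against 2.50 ± 0.193 FPKM and Gata2 at 19.5 ± 0.498 against 10.8 ± 0.405 FPKM. Of the 6 tested markers 5 were higher in MHCII-hi and 1 did not pass. The summed level of 12 neutrophil markers was 17107 to 17450 FPKM in MHCII-hi and 39166 to 39744 FPKM in MHCII-lo, and all 12 were lower in MHCII-hi. For 12 B and plasma cell markers the sum was 1525 to 1535 against 86.4 to 90.0 FPKM, with none at 0 in every library of a group. T and NK cell markers summed to 201 to 214 against 161 to 169 FPKM. Most of that sum was Nkg7, which did not pass, at 148 ± 3.42 against 150 ± 3.99 FPKM. Other markers differed more, such as Il2rb at 15.9 ± 0.936 against 3.04 ± 0.122 FPKM and Trac at 10.6 ± 0.829 against 2.74 ± 0.691 FPKM. Of the 10 tested T and NK cell markers 0 were lower. Dendritic cell markers summed to 111 to 122 against 54.2 to 55.6 FPKM. Of the tested genes of these lists, 6 of 9 B and plasma cell, 3 of 10 T and NK cell and 6 of 10 dendritic cell markers had an MHCII-lo mean under 1 FPKM. These reached the test only through MHCII-hi, so no count of higher genes is given. Monocyte and macrophage markers summed to 456 to 474 against 571 to 585 FPKM, with 4 of 10 tested genes higher and 6 lower. Erythroid and megakaryocyte markers summed to 171 to 176 against 244 to 255 FPKM (3 of 11 higher, 5 lower), and endothelial and stromal markers to 35.8 to 36.7 against 22.3 to 22.6 FPKM. In the monocyte and macrophage list and in the erythroid and megakaryocyte list, 1 tested gene each had an MHCII-lo mean under 1 FPKM. That gene reached the test only through MHCII-hi. The part of these cell types in the results that follow was not tested, and in such bulk samples fewer cells of a type and less RNA per cell cannot be told apart.

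Against that background 6 of the 9 factors were higher in MHCII-hi, 1 was lower and 2 did not pass, in a comparison where 58.6% of all tested genes were called. The factors that rose were Nr4a1, Nr4a2, Nr4a3, Egr1, Klf4 and Klf6, and the factor that fell was Klf2. Egr2 and Egr3 did not pass. The median log2 change of all 9 was 0.34. The size of the change ran from 5.02-fold higher for Nr4a3 to 1.39-fold lower for Klf2 in ratios of mean FPKM. The 9 together summed to 514 ± 3.19 FPKM in MHCII-hi and 395 ± 3.87 FPKM in MHCII-lo (SD, n = 3). All 9 passed the minimum of 1 FPKM, but Nr4a3 did so only through MHCII-hi, so a gene like it could enter the test only by being higher there.

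**Figure D1:**
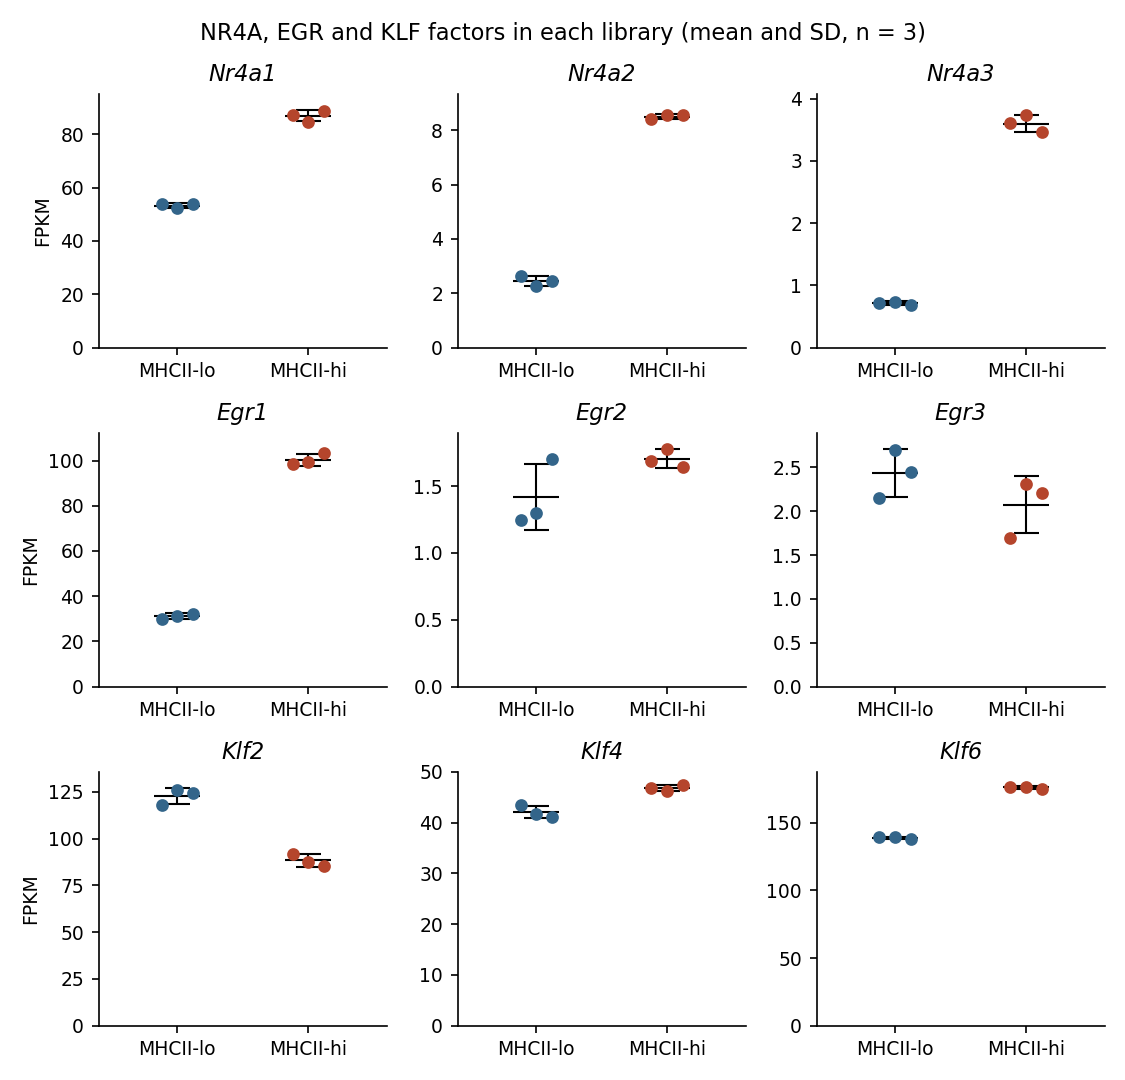
Expression of the 9 factors in each of 6 libraries, in FPKM on axes that start at 0, with MHCII-lo in blue, MHCII-hi in red, and bars for the mean and SD of 3 libraries. The 2 groups are separate in every panel except those of Egr2 and Egr3, and Klf2 is the factor that stands lower in MHCII-hi.

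The NR4A receptors all rose, and the scarce members rose most. Nr4a1 (Nur77), the most abundant of the family, lies on chromosome 15 (101254269 to 101274795, plus strand, GRCm38). Its MHCII-hi values were 87.3, 84.7 and 88.6 FPKM and its MHCII-lo values 53.8, 52.2 and 53.7 FPKM. Every MHCII-hi library stood above every MHCII-lo library, and the mean was 1.63-fold higher (log2 change 0.70, SE 0.03, limma adjusted p = 1.86e-06). Nr4a2 (Nurr1), best known from dopamine neurons and induced in activated lymphocytes and macrophages, lies on chromosome 2 (57106830 to 57124003, minus strand). Its level was 8.40, 8.54 and 8.56 FPKM in MHCII-hi against 2.63, 2.27 and 2.46 FPKM in MHCII-lo. The groups again did not overlap, and the mean was 3.46-fold higher (log2 change 1.46, SE 0.05, limma adjusted p = 1.27e-06). Nr4a3 (Nor1), which shares with Nr4a1 the restraint of HSC division, lies on chromosome 4 (48045153 to 48086447, plus strand). The libraries held 3.61, 3.73 and 3.46 against 0.72, 0.74 and 0.69 FPKM. Its ratio of means was the largest of the 9 at 5.02, and its log2 change on the log2(FPKM + 1) scale, which understates low genes, was 1.42 (SE 0.06, limma adjusted p = 3.59e-06). Only 2.69% and 2.77% of tested genes had a larger rise on that scale than Nr4a2 and Nr4a3, against 6.65% for Nr4a1.

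The makeup of the family moved with these unequal rises. Nr4a1 made up 94.4% ± 0.216 of summed NR4A FPKM in MHCII-lo and 87.8% ± 0.376 in MHCII-hi (SD, n = 3). Nr4a2 went from 4.34% ± 0.246 to 8.59% ± 0.190 and Nr4a3 from 1.27% ± 0.0639 to 3.64% ± 0.205. A ratio of 2 genes within a library does not depend on how libraries are scaled. Nr4a1 exceeded Nr4a3 74.3-fold in MHCII-lo and 24.1-fold in MHCII-hi, a log2 difference of -1.62. Nr4a1 over Nr4a2 fell from 21.7 to 10.2, and Nr4a2 over Nr4a3 from 3.42 to 2.36. In none of these 3 ratios did the groups overlap. The 3 ratios of a family share genes and are not independent, and 65.8% of single tested genes did not overlap either. For these ratios and those of the other families, the share over all gene pairs was not computed. By exact permutation (two-sided) each gave p = 0.1, the lowest possible with 3 libraries a group, and an adjusted p = 0.1 over the 9 within-family pairs compared. The summed B and plasma cell and T and NK cell markers were higher in MHCII-hi too (1525 to 1535 against 86.4 to 90.0 and 201 to 214 against 161 to 169 FPKM), and their part in the NR4A rise was not tested. Most of the T and NK cell sum was Nkg7, which did not pass (148 against 150 FPKM).

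The promoters of the 3 NR4A genes are shown because they share a dense motif. That motif was picked from several searched with its counts known, so its density is a description only. Whether the motif bears on the change of any factor was not tested. RefSeq promoter windows on GRCm38.p6 ran from 250 bases before to 50 bases after a gene start. They were found for 7 of the 9 factors in 11 windows, and for 32851 windows in all. Egr1, the factor with the largest log2 change, and Egr3 had no window and were not searched. The motif in capitals is TGACG, or CGTCA where it lies on the other strand. It is the core of the cyclic AMP response element (CRE), where CREB-family factors bind. The full element TGACGTCA contains it and was in none of the 11 windows. Each stretch is written 5′ to 3′ on the strand of the gene, without annotated exons. That of Nr4a1 lies before a start inside the span of the gene. The stretch of Nr4a1 is chr15:101266596-101266845, that of Nr4a2 chr2:57124004-57124253 on the minus strand, that of Nr4a3 chr4:48045055-48045152, and that of Klf2, the factor that fell, chr8:72318812-72319032.
Nr4a1: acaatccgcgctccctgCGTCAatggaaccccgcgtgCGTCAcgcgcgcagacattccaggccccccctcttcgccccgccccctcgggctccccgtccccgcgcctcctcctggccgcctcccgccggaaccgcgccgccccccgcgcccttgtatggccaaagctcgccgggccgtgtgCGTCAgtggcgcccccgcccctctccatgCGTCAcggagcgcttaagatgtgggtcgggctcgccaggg
Nr4a2: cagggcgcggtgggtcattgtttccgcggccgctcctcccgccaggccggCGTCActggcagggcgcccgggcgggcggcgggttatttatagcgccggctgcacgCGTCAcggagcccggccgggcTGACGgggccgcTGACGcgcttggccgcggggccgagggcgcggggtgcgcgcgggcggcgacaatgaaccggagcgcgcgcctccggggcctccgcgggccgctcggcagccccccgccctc
Nr4a3: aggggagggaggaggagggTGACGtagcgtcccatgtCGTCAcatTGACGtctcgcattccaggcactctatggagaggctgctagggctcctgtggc
Klf2: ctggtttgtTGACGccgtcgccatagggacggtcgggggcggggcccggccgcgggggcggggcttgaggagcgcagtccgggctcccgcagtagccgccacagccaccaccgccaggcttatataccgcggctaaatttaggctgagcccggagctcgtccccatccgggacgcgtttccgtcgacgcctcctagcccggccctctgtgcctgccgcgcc

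Each NR4A window held 4 CRE cores, with the fourth of Nr4a3 lying inside an annotated exon and so not printed. Of all windows 20.8% held at least 1 core on either strand, and 76 windows, 0.231%, held 4 or more. Among windows within 5 percentage points of the same GC content, 4 or more cores were found in 0.441% for Nr4a1, 0.691% for Nr4a2 and 0.596% for Nr4a3. These shares make no allowance for picking the motif with its counts known. Klf2 and Klf4 had 1 core each and Klf6 had 0. Of the 5 windows of Egr2, 3 that overlap one another held 2 cores each. Among other motifs, the EGR site GCGGGGGCG matched once in Nr4a1, Klf2 and Klf4 and was in 2.91% of all windows. The GC box GGGCGG, which can overlap that site and which KLF and Sp factors bind, was in all 6 NR4A and KLF windows and in 35.7% of all windows. A MEF2 site matched once in Klf2 and once in Nr4a2, where it overlaps a TATAAA match, against 3.19% of windows. The SRF CArG box, through which serum response factor acts, matched in 4 of the 5 Egr2 windows, of which 3 overlap and share 1 site, against 1.63% of all windows. An NF-kB consensus match was in the Nr4a1 window and in 1 window of Egr2, against 8.46%. AAAGGTCA, the element that NR4A monomers bind (in 1.51% of windows), GTAAACA, the FOXO site (3.65%), and GCGTGGGCG (0.612%) were in none of the 11. Such a match is a stretch of letters and not a measured binding site.

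**Figure D2:**
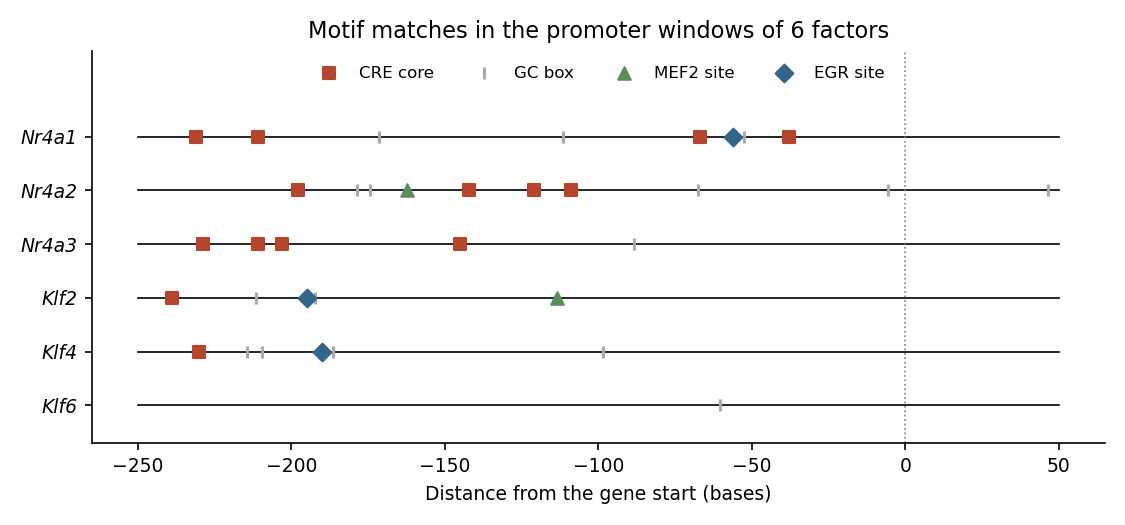
Positions of motif matches in the promoter windows of the 3 NR4A and 3 KLF genes, by distance in bases from the gene start, on either strand. The 3 NR4A windows hold 4 CRE cores each, Klf2 and Klf4 hold 1, and Klf6 holds 0.

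Among the EGR genes 1 rose strongly and the other members were low in both groups. Egr1, a serum-response factor target that restrains HSC division and exit from the marrow, lies on chromosome 18 (34859823 to 34864984, plus strand). Its values were 98.2, 99.1 and 103 FPKM in MHCII-hi and at 29.7, 31.5 and 32.2 FPKM in MHCII-lo. The lowest MHCII-hi library stood above 3 times the highest MHCII-lo library, and the mean was 3.22-fold higher (log2 change 1.66, SE 0.04, limma adjusted p = 1.22e-07). Egr2, which shapes lymphocyte tolerance and myelination, lies on chromosome 10 (67535475 to 67542188, plus strand) and was listed at 1.69, 1.78 and 1.64 against 1.25, 1.30 and 1.70 FPKM. MHCII-lo replicate 3 lay among the MHCII-hi values and the other 2 MHCII-lo libraries below them. The log2 change was 0.17 (95% interval -0.05 to 0.38, limma adjusted p = 0.158). Leaving out MHCII-lo replicate 3 brought it past the test (0.25, adjusted p = 0.0433), as did immunoglobulin-free scaling (0.27, adjusted p = 0.0358). Egr3, a close relative of Egr2 in lymphocytes and muscle spindles, lies on chromosome 14 (70077203 to 70082614, plus strand) and was listed at 1.70, 2.31 and 2.21 against 2.15, 2.70 and 2.45 FPKM. Its groups overlapped, with a log2 change of -0.16 (95% interval -0.41 to 0.08, limma adjusted p = 0.215). Under quantile normalization it passed as lower (-0.29, adjusted p = 0.0452).

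Egr2 and Egr3 rested on few fragments. From the estimated depth and the annotated exon length, roughly 100 to 190 fragments lay behind a value of Egr2 and 210 to 290 behind one of Egr3, so that counting error alone gave a coefficient of variation of up to 10% and 6.90%. The observed coefficients of variation in MHCII-hi and MHCII-lo were 4.17% and 17.4% for Egr2 and 15.8% and 11.3% for Egr3. Nr4a3 had a like depth, 100 to 710 fragments, and Egr1 had 3020 to 14470. Egr1 made up 89.0% ± 0.629 of summed EGR FPKM in MHCII-lo and 96.4% ± 0.315 in MHCII-hi (SD, n = 3). Egr1 exceeded Egr3 12.8-fold in MHCII-lo and 48.8-fold in MHCII-hi, a log2 difference of 1.93, and exceeded Egr2 22.2-fold and 58.9-fold. The groups did not overlap in either ratio, nor in that of Egr2 to Egr3 (0.579 in MHCII-lo and 0.828 in MHCII-hi), each with p = 0.1 by exact permutation. Egr4, the remaining family member, was listed at up to a mean of 0.0667 FPKM in either group and was not tested. Of the corepressors, Nab2, itself an EGR target, was higher, at 2.30 ± 0.402 FPKM in MHCII-hi and 1.22 ± 0.219 FPKM in MHCII-lo (limma adjusted p = 0.00514). Nab1 stood at 14.7 ± 0.630 FPKM in MHCII-hi and 14.0 ± 0.852 FPKM in MHCII-lo and did not pass (adjusted p = 0.302), but did with immunoglobulin-free scaling (log2 change 0.23).

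The KLF genes were expressed at moderate to high levels and moved in both directions. Klf6, a stress-responsive factor expressed in myeloid cells, lies on chromosome 13 (5861482 to 5870394, plus strand) and had the highest level in both groups. Its values were 177, 177 and 175 against 139, 139.6 and 138 FPKM. The coefficient of variation between replicates was at most 0.544%, the groups were apart, and the mean was 1.27-fold higher (log2 change 0.34, SE 0.02, limma adjusted p = 6.76e-06). Quantile normalization took that difference away and turned its sign (-0.019, adjusted p = 0.375). Klf2, which holds naive lymphocytes at rest, lies on chromosome 8 (72319033 to 72321656, plus strand) and was the exception in direction. It was listed at 91.9, 87.5 and 85.6 against 118, 126 and 125 FPKM. All 3 MHCII-hi libraries stood below all 3 MHCII-lo libraries, and the mean was 1.39-fold lower (log2 change -0.47, SE 0.04, limma adjusted p = 6.39e-05). The change was -0.30 with immunoglobulin-free scaling and -0.74 under quantile normalization, and it passed under both. Klf4, which drives monocyte differentiation, lies on chromosome 4 (55527143 to 55532466, minus strand) and differed least of the factors called. It was listed at 46.7, 46.2 and 47.4 against 43.5, 41.6 and 41.2 FPKM. The groups did not overlap, and the mean was 1.11-fold higher (log2 change 0.15, SE 0.03, limma adjusted p = 0.00438), a change that 29.9% of tested genes exceeded. It was 0.32 when scaled without immunoglobulin genes and 0.09 with upper-quartile scaling (adjusted p = 0.0297).

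Because the KLF genes moved in opposite directions, their sums lay close while the makeup differed. Summed KLF level was 311 ± 3.66 FPKM in MHCII-hi and 304 ± 3.36 FPKM in MHCII-lo (SD, n = 3). Klf2 made up 40.4% ± 1.07 of it in MHCII-lo and 28.4% ± 0.710 in MHCII-hi, and Klf6 45.7% ± 0.539 and 56.6% ± 0.505. The ratio of Klf2 to Klf6 was 0.883 in MHCII-lo and 0.501 in MHCII-hi, a log2 difference of -0.82, and that of Klf2 to Klf4 was 2.92 and 1.89. Klf4 over Klf6 differed by -0.19 on the log2 scale. The groups did not overlap in these 3 ratios, and each had p = 0.1 by exact permutation. The median log2 change was -0.36 for monocyte and macrophage markers and -1.25 for neutrophil markers, and their part in the KLF values was not tested.

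**Figure D3:**
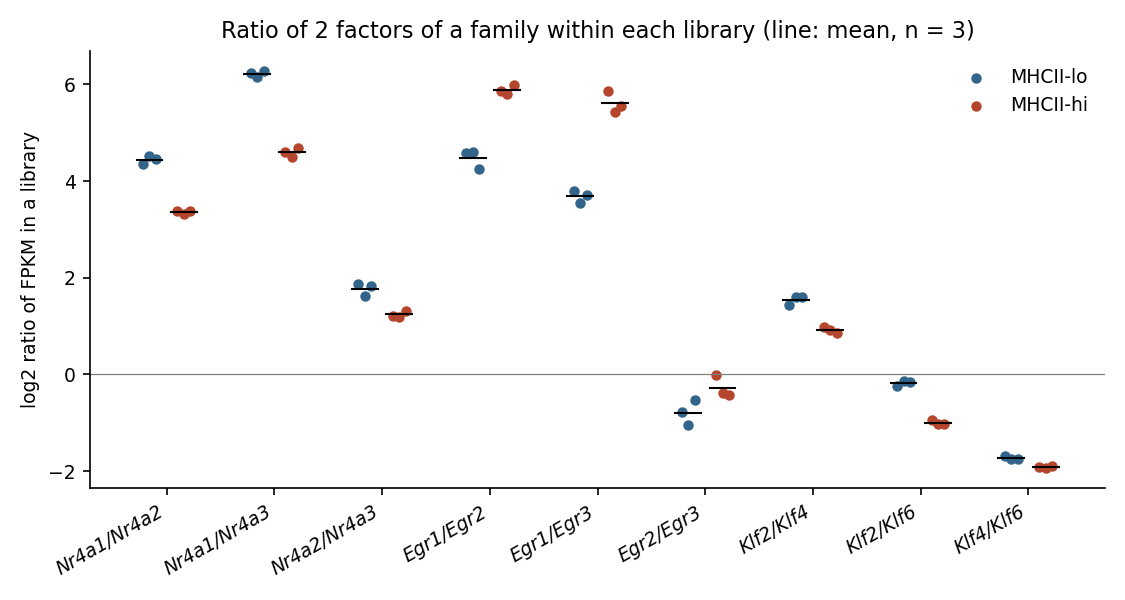
Log2 ratio of FPKM of 2 factors of the same family within each of 6 libraries, with MHCII-lo in blue, MHCII-hi in red and a line for the mean of 3 libraries. The groups are apart in all 9 pairs, with the largest differences in Egr1 over Egr3 (1.93) and Nr4a1 over Nr4a3 (-1.62). Pairs of a family share genes and are not independent, and 65.8% of single tested genes did not overlap either.

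The order of the 9 levels differed between the groups. In MHCII-lo, Klf6 led at 139 FPKM, followed by Klf2 at 123, Nr4a1 at 53.3, Klf4 at 42.1 and Egr1 at 31.1, and then Nr4a2 at 2.45, Egr3 at 2.43, Egr2 at 1.42 and Nr4a3 at 0.717. In MHCII-hi, Klf6 led at 176 FPKM, followed by Egr1 at 100.2, Klf2 at 88.3, Nr4a1 at 86.9 and Klf4 at 46.8, and then Nr4a2 at 8.50, Nr4a3 at 3.60, Egr3 at 2.07 and Egr2 at 1.70. Neighbours that overlapped between libraries were Nr4a2 and Egr3 in MHCII-lo, and Klf2 and Nr4a1, and Egr3 and Egr2, in MHCII-hi. Egr1 was thus the fifth in MHCII-lo and the second in MHCII-hi, and Nr4a3 the last and the seventh.

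**Figure D4:**
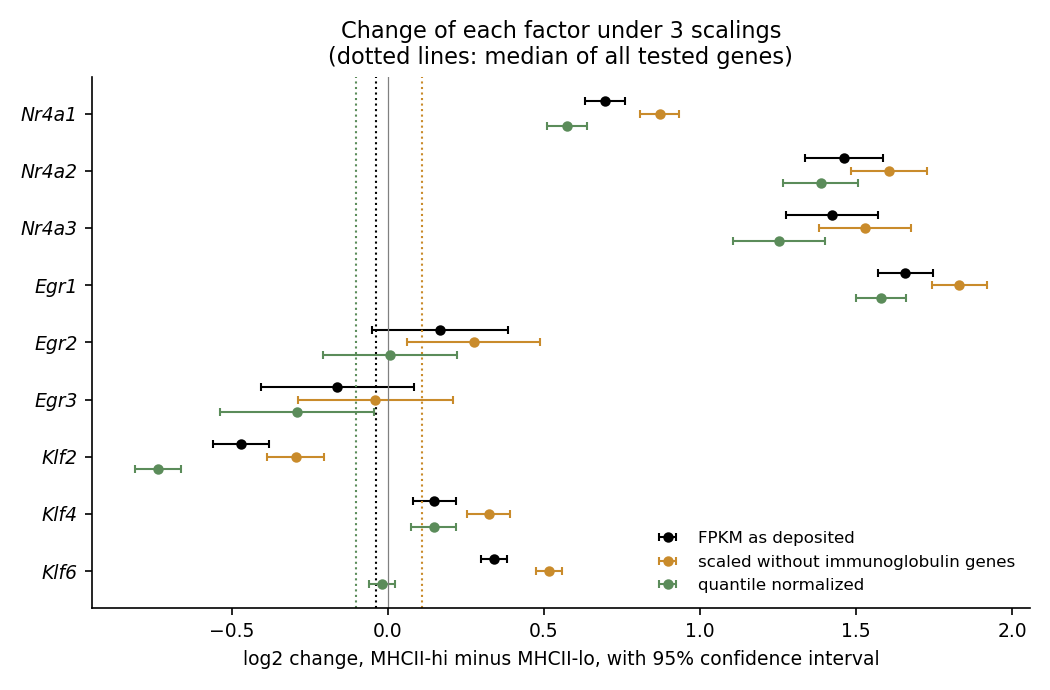
Log2 change of each factor (MHCII-hi minus MHCII-lo) with its 95% confidence interval, for FPKM as deposited, for libraries scaled without immunoglobulin genes, and after quantile normalization, with dotted lines at the median of all tested genes. Nr4a1, Nr4a2, Nr4a3 and Egr1 lie right of 0.5 and Klf2 left of 0 under all 3 scalings, while Klf6 moves from 0.34 to -0.019 under quantile normalization.

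Most other immediate early genes were higher in MHCII-hi, as Egr1 and the NR4A genes were. Of 34 such genes in the files 32 were tested. Of these 28 rose, 2 fell and 2 did not pass, with a median log2 change of 0.71, where 25.5% of all genes rose and the median of all was -0.04. Those with the smallest p were Tnfaip3, which limits NF-kB signalling, at 91.2 ± 1.13 against 29.8 ± 0.283 FPKM, and Nfkbia, the NF-kB inhibitor, at 194.6 ± 3.13 against 76.5 ± 1.77 FPKM. Fosb and Jun, subunits of the AP-1 factor, stood at 185 ± 4.81 against 70.7 ± 1.26 and at 498 ± 3.90 against 269 ± 4.41 FPKM. The most abundant others were Fos at 631 ± 5.61 against 451 ± 3.08 FPKM and the mRNA-decay factor Zfp36 at 348 ± 12.4 against 196.5 ± 3.75 FPKM. The members that fell were Myc, at 30.3 ± 1.23 against 34.8 ± 0.674 FPKM, and the survival factor Mcl1, at 175 ± 2.82 against 207 ± 2.10 FPKM. With immunoglobulin-free scaling 29 rose and 1 fell, against 40.5% and 17.6% of all genes. Under that scaling Myc no longer passed (limma adjusted p = 0.643), and Nfil3 passed as higher (limma adjusted p = 0.00236). Egr1 had a larger log2 change than any of the 32. As background, these genes are known to respond to tissue handling too, and the labels give no time from collection to lysis.

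**Figure D5:**
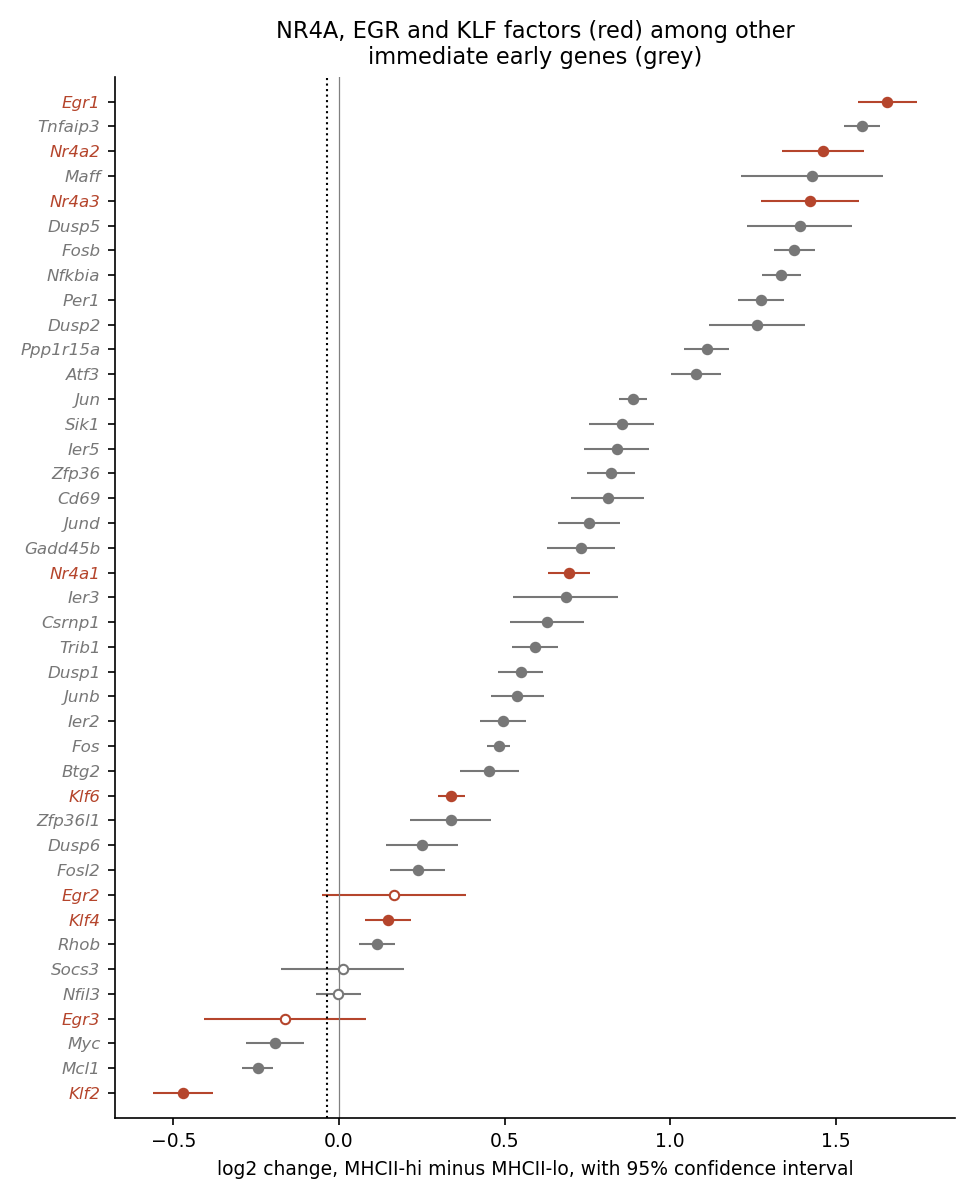
Log2 change (MHCII-hi minus MHCII-lo) with 95% confidence interval for the 9 factors in red and 32 other tested immediate early genes in grey, ordered by change, with open points for adjusted p of 0.05 or more and a dotted line at the median of all tested genes. Egr1 lies at the top, Nr4a2 and Nr4a3 near it, and Klf2 at the bottom.

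Relatives of the KLF and EGR genes were listed together, and those tested, all KLF or Sp genes, rose more often than they fell. Of 18 in the files 14 were tested, and 8 rose, 2 fell and 4 did not pass, with a median log2 change of 0.11. Over all tested genes 25.5% rose and 33.1% fell. Scaled without immunoglobulin genes, 10 rose and 1 fell, against 40.5% and 17.6% of all genes. Klf11 and Klf10, both known as TGF-beta-inducible early genes, led with 19.0 ± 0.428 against 6.29 ± 0.161 FPKM and 18.4 ± 0.335 against 7.85 ± 0.267 FPKM. Klf8 stood at 1.82 ± 0.289 against 0.890 ± 0.0557 FPKM and so reached the test only through MHCII-hi. Klf3, a repressor, fell to 5.67 ± 0.161 from 8.40 ± 0.271 FPKM in MHCII-hi. Of the most abundant relatives, Sp3 was lower at 34.7 ± 0.174 against 37.8 ± 0.597 FPKM but turned to 0.05 on the log2 scale, not passing, with immunoglobulin-free scaling (adjusted p = 0.0986), and Klf13 was higher at 23.0 ± 0.317 against 20.9 ± 0.292 FPKM.

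The upstream factors and kinases of these genes, listed together with their cofactors and corepressors, did not share 1 direction. Of 27 cofactors and upstream genes tested, 14 rose, 5 fell and 8 did not pass, with a median log2 change of 0.12, where 25.5% of all genes rose and 33.1% fell. Of the 14, 1 had an MHCII-lo mean under 1 FPKM and reached the test only through MHCII-hi. With immunoglobulin-free scaling 20 rose and 2 fell, against 40.5% and 17.6% of all. The kinases ERK1 (Mapk3) and MEK1 (Map2k1), which carry growth factor signals to Egr1, were lower at 43.1 ± 0.935 against 57.8 ± 0.70 FPKM and 19.6 ± 0.509 against 26.5 ± 0.741 FPKM. Srf, the serum response factor, was lower too, at 17.4 ± 0.799 against 21.0 ± 0.899 FPKM, but not with immunoglobulin-free scaling (adjusted p = 0.134). Mef2d, a calcium-responsive factor that acts at Nr4a1, was higher at 22.7 ± 0.133 against 16.5 ± 0.904 FPKM. Hdac7, a corepressor that binds MEF2 proteins, was higher at 8.58 ± 0.415 against 5.15 ± 0.294 FPKM.

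Genes reported elsewhere as targets of these factors were split. Of 17 tested, 8 rose, 7 fell and 2 did not pass, with a median log2 change of -0.01, and the shares over all tested genes were 25.5% higher and 33.1% lower. Of the 8, 1 had an MHCII-lo mean under 1 FPKM and reached the test only through MHCII-hi. When scaled without immunoglobulin genes 9 rose and 4 fell, against 40.5% and 17.6% of all. The sphingosine receptor S1pr1, a target of Klf2 in lymphocytes, rose to 3.94 ± 0.142 from 1.17 ± 0.119 FPKM while Klf2 fell. The integrin chain Itgb7 stood at 65.1 ± 1.52 against 35.9 ± 0.517 FPKM and the interleukin-7 receptor Il7r at 6.39 ± 0.216 against 1.84 ± 0.223 FPKM, both higher. The monocyte antigen Ly6c2 and the myeloid factor Cebpb were lower, at 321 ± 8.80 against 396 ± 8.88 and 59.1 ± 1.61 against 70.5 ± 4.26 FPKM, though Cebpb did not pass with immunoglobulin-free scaling (adjusted p = 0.208).

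Genes tied to quiescence rose more often than they fell, and most proliferation genes fell slightly. In the quiescence list 12 of 21 tested genes rose, 4 fell and 5 did not pass, with a median log2 change of 0.24, where 25.5% of all tested genes rose and 33.1% fell. With immunoglobulin-free scaling 16 rose and 3 fell, against 40.5% and 17.6% of all. Txnip, a metabolic brake, stood at 58.2 ± 1.71 against 35.6 ± 0.874 FPKM, and the niche receptor Cxcr4 at 167 ± 3.60 against 132 ± 1.63 FPKM. Foxo1, counted among the 12, stood at 2.88 ± 0.305 against 0.820 ± 0.0557 FPKM and so reached the test only through MHCII-hi. Cdkn1a, the p53-induced cell cycle inhibitor p21, stood at 19.6 ± 1.50 against 10.7 ± 0.517 FPKM. Of the abundant members, Btg2 was higher at 96.1 ± 2.02 against 70.0 ± 3.26 FPKM, and Btg1 did not pass at 90.8 ± 1.11 against 90.9 ± 0.967 FPKM but was higher with immunoglobulin-free scaling (log2 change 0.17, adjusted p = 4.83e-04). Of 26 proliferation genes, 20 fell, 3 rose and 3 did not pass, with a median log2 change of -0.16, beside the same 33.1% and 25.5% of all genes. That count depended on the scaling: without immunoglobulin genes 10 fell and 8 rose, against 17.6% and 40.5% of all, with a median of 0.01. The cyclins Ccne2, Ccna2 and Ccnb1 stood at 8.78 ± 0.266 against 15.4 ± 0.145, 43.7 ± 0.915 against 59.4 ± 1.42 and 25.5 ± 0.769 against 37.1 ± 1.36 FPKM. The replication clamp Pcna and the nucleotide enzyme subunit Rrm2 were lower at 139 ± 2.65 against 177 ± 3.37 and 63.4 ± 0.961 against 84.7 ± 2.80 FPKM. The cycling marker Mki67 was higher at 84.3 ± 1.47 against 76.7 ± 0.617 FPKM. Of the 3 proliferation genes that rose, 1 had an MHCII-lo mean under 1 FPKM and reached the test only through MHCII-hi.

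The genes whose profiles lay closest to a factor were found by the root mean square difference of log2(FPKM + 1) over the 6 libraries, each profile centred on its own mean. With 2 groups this measure reflects mainly the size of the group difference. Closest to Nr4a1 were Ash1l, Txnip and Stat2, at 0.0214, 0.0219 and 0.0277. Nr4a2 had Klf11, Klrk1 and Blnk, at 0.0316, 0.0422 and 0.0528, and Nr4a3 had Bhlhe40, Klf11 and Gabbr1, at 0.0441, 0.0535 and 0.0539. Egr1 had Slpi, Prg3 and H2-Q6, at 0.0480, 0.0523 and 0.0542. For Klf2 they were Tbc1d14, Pwp1 and Nedd8, at 0.0144, 0.0163 and 0.0185. Klf4 had Iqgap3, Ehd4 and Zfp445, at 0.0125, 0.0134 and 0.0139, and Klf6 had Ikbkb and Camsap1, at 0.00813 and 0.0117. For the factors that did not pass they were Trappc9, Grk5 and Trpv2 (Egr2, 0.0235 to 0.0290) and Adora3 and Smim20 (Egr3, 0.0283 and 0.0481).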

How the data were processed

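Sorted cells gave RNA for strand-marking mRNA libraries (per the labels' protocols). Among tools, fastp, HISAT2 and StringTie appear in the submitters' processing notes, with GRCm38 (mm10) as build. Their versions, settings and annotation, including the strand setting, were not given in the sources used here. Each library has 1 deposited table, and the tables name no unit in the header. Their values were read as FPKM computed by the authors, since they are not whole numbers and sum differently in each library.

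The 30803 rows were reduced by 70 by keeping the highest row of a repeated symbol. Genes reaching a mean of 1 FPKM (12110) were compared between MHCII-hi and MHCII-lo, grouped by label, with limma 3.58.1 (R 4.3.3; trend, two-sided) on log2 values with 1 FPKM added, and adjusted over all of them by Benjamini-Hochberg. Folds are ratios of mean FPKM. Ratios within a family were tested by exact permutation (scipy 1.17.1). The fit was tested on simulated data. Alternatives were the replicate block, omission of single libraries, a pseudocount of 0.1, no minimum or one of 5 FPKM, quantile, upper-quartile and immunoglobulin-free scaling, other variance models and summed rows. Coordinates are from GENCODE M21 (GRCm38) and promoters from RefSeq (GRCm38.p6). No other annotated gene overlapped the 9.

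Depth was estimated in single-exon genes of 100 to 1000 bases, where the lowest FPKM values step by 1 fragment. The step was sought in a fixed window, so fragment numbers are rough. Replicates differed more than counting error allows (squared difference, median over genes, 2.30 to 2.55 times its size), and each library was counted as 1 sample.

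Members and lists were chosen with earlier results of these data known, and no list was tested as a set. Named are the 9 factors, in each list the 4 genes with the smallest p and 2 more with the highest mean, and the 3 closest profiles of each factor. Some genes named by this rule are not reported here. Egr4, Nab1, Nab2, Myc, Mcl1, Nkg7, Il2rb, Trac and the HSC markers were named after their values were seen.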

Additional observations from a re-analysis of the deposited data

How the results depend on the processing

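The calls of Nr4a1, Nr4a2, Egr1, Klf2 and Klf4 kept their direction and passed under all 16 alternatives, and that of Nr4a3 under the 15 that tested it. Under quantile normalization the log2 change of Klf6 was -0.019, so 5 factors were higher and 2 lower (Klf2 and Egr3); the cause was not tested. Scaled without immunoglobulin genes, 4901 genes were higher and 2131 lower in place of 3084 and 4009. Under that scaling 1 of the relatives, 2 of the cofactor and upstream genes, 1 immediate early gene and 4 targets were lower, and 8 proliferation genes were higher and 10 lower. A minimum of 5 FPKM left 7327 genes tested, of which 1792 were higher and 3287 lower. Under that minimum 8 of 20 tested cofactor and upstream genes and 2 of 10 tested targets were higher. The 9 within-family ratios kept their sign under their 7 alternatives. Leaving out 1 library gave 2716 to 2922 higher and 3583 to 3693 lower genes, and 6 to 7 factors higher. With the replicate number as a block 6 factors were higher and 1 lower, with 2856 and 3782 genes in all. No pairing by replicate number was seen. Deviations of same-numbered libraries correlated at -0.09, -0.0036 and -0.03 across 12110 genes, and no library correlated best with its own number. A small effect shared by same-numbered libraries could go unseen in this check. Egr2 and Egr3 had at most 290 estimated fragments in a library, and their replicate spread was above counting error except for Egr2 in MHCII-hi.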
